A study of Mus musculus with 7 samples.

Results

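The p53 genes described here are Trp53, which encodes the transcription factor p53, its inhibitor gene Mdm2, and 8 stress genes that p53 can switch on in various cell types: Cdkn1a, Gadd45a, Gadd45b, Gadd45g, Ccng1, Btg2, Sesn1 and Trp53inp1. They were taken by gene symbol, and all 10 were found among the 24319 genes of the deposited table. All 10 were also among the 12275 genes with enough signal to test, which needed an FPKM (a fragment count scaled to 1 kilobase of transcript and 1000000 mapped fragments) of at least 1 in 2 or more libraries.

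p53 is a sequence-specific transcription factor that is held low in unstressed cells by Mdm2, a ubiquitin ligase that marks it for destruction. DNA damage and other stresses free it, and it then activates genes that halt the cell cycle, aid DNA repair, limit oxidative and metabolic stress or lead to cell death. Its activity is set mainly at the protein level, so the level of Trp53 mRNA alone does not give the activity of p53, and Gadd45b and Gadd45g are also induced by p53-independent stress and cytokine signals. In early embryos much mRNA is still maternal, inherited from the oocyte.

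The embryos were made by somatic cell nuclear transfer, in which a cumulus cell, a somatic cell from around the oocyte, is injected into an oocyte freed of its own chromosomes. All were of the wild-type B6D2F1 mouse strain and carried injected mRNA of the histone demethylase gene Kdm4a, the groups without melatonin included. Embryos of the CROC+K+M group (2 libraries) had cryopreserved (vitrified and warmed) recipient oocytes and were treated with 10 µM of the antioxidant hormone melatonin. The CROC+K group (3 libraries) came from cryopreserved oocytes without melatonin, and the FOC+K group (2 libraries) from fresh oocytes without melatonin. The labels mention a vehicle without saying which samples had it. Each library pooled 50 to 100 embryos labelled as 2-cell stage, although the treatment protocol names blastocysts too. A library is 1 sample, and the p-values measure the spread between such pools. A lower level in such a pool cannot tell fewer expressing embryos from less RNA per embryo.

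Among the libraries, CROC+K+M replicate 1 stands apart. Its summed FPKM over 10 trophectoderm markers was 25590, against 9.04 to 26.7 in the other 6 libraries, and all 10 were at or above 1. Most of that sum is Fabp3, at 24400, followed by Krt18 at 750.3 and Krt8 at 300.2. Cdx2, which defines that lineage, was at 6.97 there and listed at 0 in the other 6. These values go against its 2-cell label, so the stage behind each CROC+K+M value that includes this library is uncertain. Its correlation with the other libraries over log2(FPKM + 1) was 0.851 to 0.875. The 10 markers of the inner cell mass summed to 412.3 in it and to 85.2 to 261.2 in the others, with Sox17 listed at 0 in all 7. Of the 2-cell stage markers 7 of the 9 in the table had signal, summing to 100.4 to 729.1, while Tcstv1 and Tcstv3 were listed at 0 in every library, and the 10 oocyte markers summed to 3937 to 6509. In CROC+K+M replicate 1 itself the 2-cell stage markers summed to 235.3, within the range of the other libraries. Its oocyte markers summed to 3937, the lowest, beside 4007 in CROC+K+M replicate 2. The 14 cumulus cell markers summed to at most 18.2 in any library. Injected Kdm4a lay between 497.4 and 4949 FPKM, with both extremes in CROC+K. The ribosomal RNA precursor Rn45s was at 1047 to 2114 in CROC+K replicate 1 and both FOC+K libraries, and at 175.4 to 265.7 in the other 4. FPKM sums were 552400 to 1018000, and the value of 1 fragment implied depths within 1.56-fold of each other.

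Promoters of the members are shown first, because p53 acts by binding DNA near or within its target genes. RefSeq promoter sequence (build GRCm38.p6) was matched by symbol for 9 of the 10 members, and the 250 bases before each annotated start were searched for the consensus p53 decamer, the 10-base unit of a p53 response element. That decamer is its own reverse complement, so a single search covers both strands. It was found before a RefSeq start of 6 of the 9 genes, beside 8.2% of all genes with a promoter sequence. By promoter, it was found in 6 of their 11, beside 7.13% of all 32851. Capitals mark the decamers.
Cdkn1a, chr17:29090891-29090952, plus strand: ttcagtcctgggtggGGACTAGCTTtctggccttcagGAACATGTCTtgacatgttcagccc
Mdm2, chr10:117710920-117710959, minus strand: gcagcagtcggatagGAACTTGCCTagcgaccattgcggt
Ccng1, chr11:40755447-40755486, minus strand: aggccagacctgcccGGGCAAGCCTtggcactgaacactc
Gadd45a, chr6:67037423-67037462, minus strand: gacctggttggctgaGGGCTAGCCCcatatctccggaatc
Sesn1, chr10:41887251-41887290, plus strand: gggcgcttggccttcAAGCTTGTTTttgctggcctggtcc
Trp53, chr11:69580269-69580308, plus strand: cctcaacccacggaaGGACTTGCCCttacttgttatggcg
In Cdkn1a the 2 decamers began 73 and 51 bases before the first of its 2 annotated starts. None was found before the second Cdkn1a start or the first Sesn1 start. The Gadd45a decamer lay closest to a RefSeq start, at 40 bases, in a stretch that overlaps an exon of Gadd45a in GENCODE M21, the Trp53 decamer at 75, and those of Sesn1 (second start), Ccng1 and Mdm2 at 173, 185 and 186. No exact match lay in these windows for Gadd45b, Gadd45g or Btg2. A match describes the letters and does not by itself show binding, which was not measured here. Some p53 elements of several of these genes are known from introns or farther upstream, outside the windows.

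Averaged over the 7 libraries, the members spanned an 11.2-fold range of FPKM, which is scaled to transcript length and so allows levels of different genes to be set side by side. Gadd45b (74.2), Gadd45a (67.3), Mdm2 (56.2) and Trp53inp1 (49.4) were highest, above 84.6% to 88.8% of all genes tested. Gadd45g (31.0) and Cdkn1a (29.3) came next. Trp53 itself (12.9) and Ccng1 (11.3) were at a middling level, and Sesn1 (7.07) and Btg2 (6.63) were lowest, near the middle of all genes. The ranges of neighbours in this order over the 7 libraries overlapped throughout. Trp53inp1 and Mdm2 varied least, with a highest library 1.33-fold and 1.59-fold above the lowest. Btg2, Sesn1, Gadd45g and Ccng1 varied most, by 19.5-fold, 16.0-fold, 14.8-fold and 13.6-fold.

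**Figure D1:**
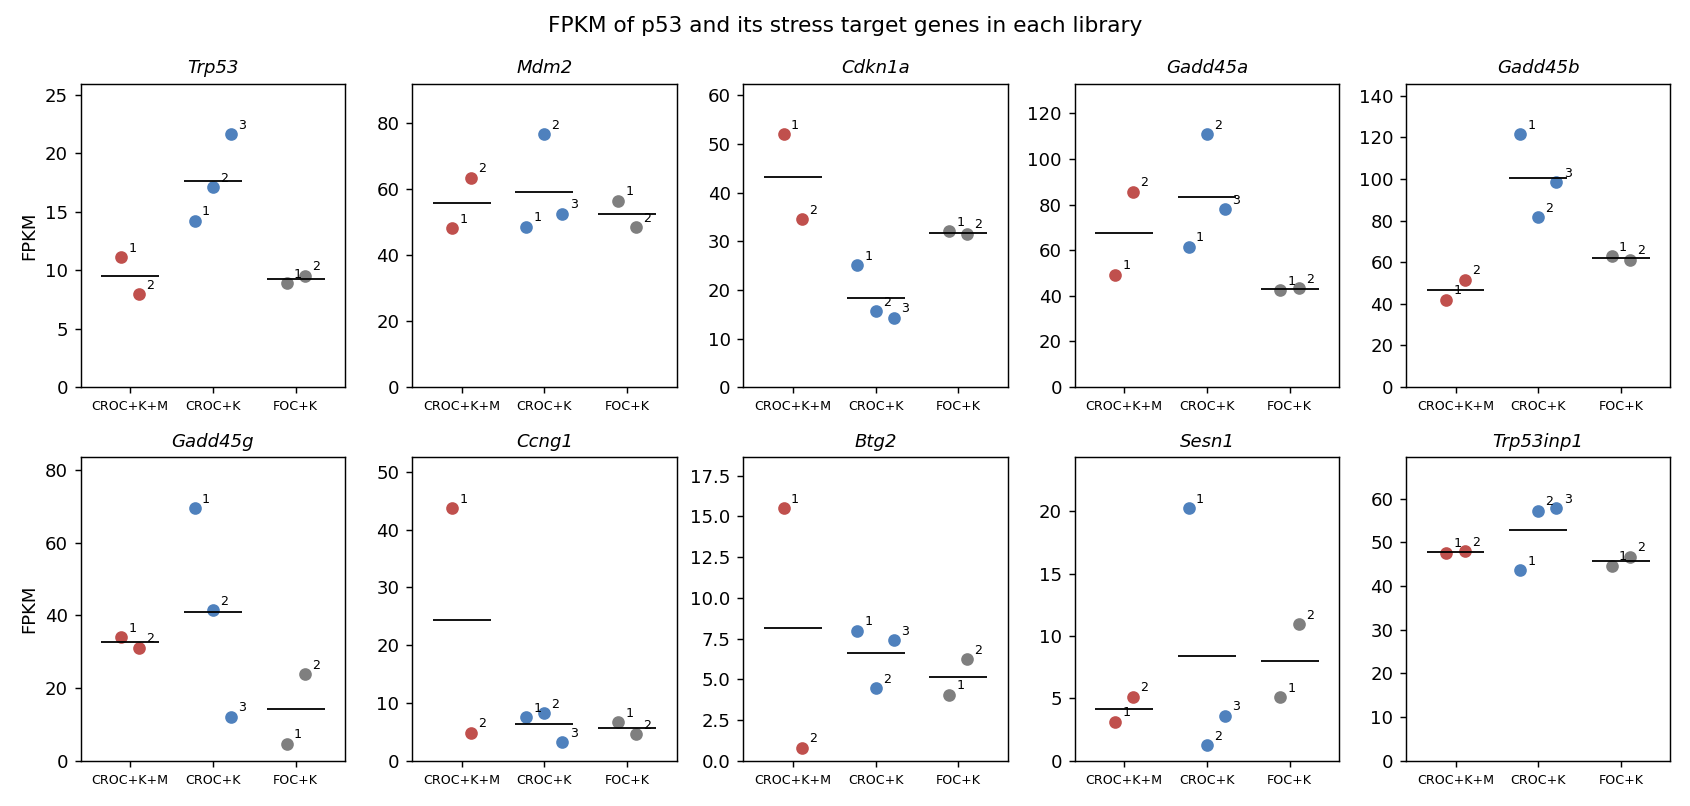
FPKM (vertical axes, each starting at 0) of the 10 genes in each library of the CROC+K+M, CROC+K and FOC+K groups. Points are libraries, numbered by replicate, and lines are group means. In Trp53 and Gadd45b all 3 CROC+K points lie above those of both other groups, in Cdkn1a all 3 lie below them, and the high CROC+K+M mean of Ccng1 comes from replicate 1 at 43.8.

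No member passed the threshold (limma, Benjamini-Hochberg adjusted p under 0.05 over all 12275 genes) in any of the 3 comparisons, where 0% of all genes passed in each. At an unadjusted p under 0.05, 4 of the 10 members were found for CROC+K versus FOC+K, beside 2.19% of all genes, 3 of the 10 for CROC+K+M versus CROC+K, beside 10.4%, and 0 for CROC+K+M versus FOC+K, beside 6.46%. With array weights no gene passed either. The first 2 comparisons share the CROC+K libraries, so a value that is high in CROC+K by chance enters both, with opposite sign. Opposite changes are therefore not independent of each other.

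Trp53 was at 11.1 and 7.94 FPKM in the CROC+K+M libraries, at 14.2, 17.1 and 21.6 in CROC+K, and at 8.90 and 9.52 in FOC+K. The 3 CROC+K libraries were the highest of the 7, and the other groups overlapped. For CROC+K versus FOC+K the log2 fold change was 0.85 ± 0.31 (limma SE, 95% interval 0.12 to 1.58, unadjusted p = 0.0279, adjusted p = 0.9996). For CROC+K+M versus CROC+K it was -0.82 ± 0.31 (-1.55 to -0.09, unadjusted p = 0.0317, adjusted p = 0.445), and for CROC+K+M versus FOC+K it was 0.03 ± 0.34 (-0.77 to 0.83). RefSeq lists a processed copy, Trp53-ps, whose reads may be shared with Trp53, so the level is uncertain.

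Mdm2, whose product degrades p53 and which is itself a p53 target, had group means in the same order as those of Trp53, and a difference between the responses of the genes was not tested. It was at 48.1 and 63.4 FPKM in CROC+K+M, at 48.5, 76.5 and 52.4 in CROC+K, and at 56.3 and 48.4 in FOC+K. The groups overlapped in every pairing. The log2 fold changes were 0.15 ± 0.30 for CROC+K versus FOC+K (95% interval -0.55 to 0.85) and -0.07 ± 0.30 for CROC+K+M versus CROC+K (-0.77 to 0.63), intervals that still allow changes of up to 0.85 and 0.77 on that scale.

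Cdkn1a encodes p21, the inhibitor of cyclin-dependent kinases through which p53 arrests the cell cycle. Where Trp53 was highest, in CROC+K, Cdkn1a was lowest: it was at 52.0 and 34.6 FPKM in CROC+K+M, 25.1, 15.6 and 14.3 in CROC+K, and 32.0 and 31.6 in FOC+K. All 3 CROC+K libraries lay below the other 4, and CROC+K+M lay above FOC+K without overlap. The log2 fold change was 1.21 ± 0.34 for CROC+K+M versus CROC+K (95% interval 0.42 to 2.00, unadjusted p = 0.00799, adjusted p = 0.409), -0.81 ± 0.34 for CROC+K versus FOC+K (unadjusted p = 0.0468, adjusted p = 0.9996) and 0.41 ± 0.37 for CROC+K+M versus FOC+K (adjusted p = 0.843). The highest value is that of CROC+K+M replicate 1, the library with trophectoderm markers, whose part in it was not tested. Without that library the log2 fold change was 0.92 ± 0.39 against CROC+K (unadjusted p = 0.0511) and 0.12 against FOC+K. Within the 4 libraries with low Rn45s, CROC+K+M stood at the same 52.0 and 34.6 and CROC+K at 15.6 and 14.3. With the Rn45s split as a term, the value for CROC+K versus FOC+K was -0.33. That term leaves only CROC+K replicate 1 to set against FOC+K. A transcript model without a gene symbol on the opposite strand shares 273 of 2718 exon bases with Cdkn1a (GENCODE M21, GRCm38), and whether counting used strand is not given in the sources used here.

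Ccng1 and Btg2 are the other cell cycle genes. Ccng1 encodes cyclin G1, a p53 target that recruits a phosphatase to Mdm2. It was at 43.8 and 4.90 FPKM in CROC+K+M, at 7.58, 8.25 and 3.21 in CROC+K, and at 6.69 and 4.64 in FOC+K, so CROC+K+M replicate 1 alone was high. Its log2 fold change of 1.23 ± 0.80 for CROC+K+M versus CROC+K was -0.23 without that library. Leaving out CROC+K+M replicate 2 gave 2.69 ± 0.54 against CROC+K and 2.76 ± 0.57 against FOC+K. In that fit replicate 1 alone stands for melatonin and is assumed to vary like the other groups. The trophectoderm markers given above move with this value, and their part in it was not tested. Btg2, an antiproliferative gene, split the same 2 libraries most widely, at 15.5 and 0.797 FPKM in CROC+K+M, which are the highest and the lowest of the 7. It was at 7.98, 4.44 and 7.39 in CROC+K and at 4.05 and 6.24 in FOC+K, and its log2 fold change for CROC+K+M versus CROC+K was -0.45 ± 0.83, 1.15 without CROC+K+M replicate 2 and -2.05 without replicate 1.

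The Gadd45 genes encode small stress sensor proteins that act in DNA repair, cell cycle arrest and stress kinase signalling, and each of the 3 paralogs had its highest group mean in CROC+K. Gadd45b was at 42.0 and 51.6 FPKM in CROC+K+M, at 121.5, 81.6 and 98.6 in CROC+K, and at 62.8 and 61.3 in FOC+K. The 3 groups were fully separate, with CROC+K highest and CROC+K+M lowest. The log2 fold change was -1.08 ± 0.27 for CROC+K+M versus CROC+K (95% interval -1.71 to -0.44, unadjusted p = 0.00483, adjusted p = 0.409), 0.67 ± 0.27 for CROC+K versus FOC+K (0.03 to 1.31, unadjusted p = 0.0418, adjusted p = 0.9996) and -0.41 ± 0.30 for CROC+K+M versus FOC+K (adjusted p = 0.816).

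Gadd45a, the paralog most directly tied to p53, was at 49.3 and 85.7 FPKM in CROC+K+M, at 61.5, 110.8 and 77.9 in CROC+K, and at 42.4 and 43.4 in FOC+K. Every library from a cryopreserved oocyte lay above both FOC+K libraries, while CROC+K+M and CROC+K overlapped. The log2 fold change was 0.90 ± 0.36 for CROC+K versus FOC+K (95% interval 0.07 to 1.73, unadjusted p = 0.0362, adjusted p = 0.9996), 0.59 ± 0.39 for CROC+K+M versus FOC+K (-0.32 to 1.49) and -0.31 ± 0.36 for CROC+K+M versus CROC+K (-1.14 to 0.51). For CROC+K versus FOC+K it was 0.57 under equal FPKM sums and 0.51 with the Rn45s split as a term, and for CROC+K+M versus FOC+K it was 0.00 under either. Both CROC+K+M libraries are low in Rn45s and both FOC+K libraries high, so the split leaves no direct comparison of these groups. Its values against FOC+K rest on CROC+K replicate 1, the only CROC+K library with high Rn45s. E230016M11Rik, a transcript on the opposite strand, shares 238 of the 1223 exon bases of Gadd45a. Gadd45g varied widely, at 34.0 and 31.2 FPKM in CROC+K+M, at 69.5, 41.4 and 12.1 in CROC+K, and at 4.71 and 23.8 in FOC+K. Both CROC+K+M libraries lay above FOC+K (1.5 ± 0.88, 95% interval -0.56 to 3.55, and 0.44 without FOC+K replicate 1), and CROC+K overlapped both other groups. The log2 fold change of 1.51 ± 0.80 for CROC+K versus FOC+K was 0.46 without FOC+K replicate 1 and 2.57 without FOC+K replicate 2.

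The summed FPKM of the 3 Gadd45 genes was 125.3 and 168.5 in CROC+K+M, 252.5, 233.9 and 188.6 in CROC+K, and 109.8 and 128.5 in FOC+K. The 3 CROC+K sums were the highest of the 7, without overlap. Within that sum Gadd45b took 33.5% and 30.6% in CROC+K+M, 48.1%, 34.9% and 52.3% in CROC+K, and 57.1% and 47.7% in FOC+K. Both melatonin libraries had a smaller Gadd45b share than every other library. Gadd45a was the largest part of the family in both (39.3% and 50.9%), as it also was in CROC+K replicate 2 (47.4%). Gadd45g took 27.1% and 18.5% in CROC+K+M, 27.5%, 17.7% and 6.43% in CROC+K, and 4.29% and 18.5% in FOC+K. These sums and shares were not tested.

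**Figure D2:**
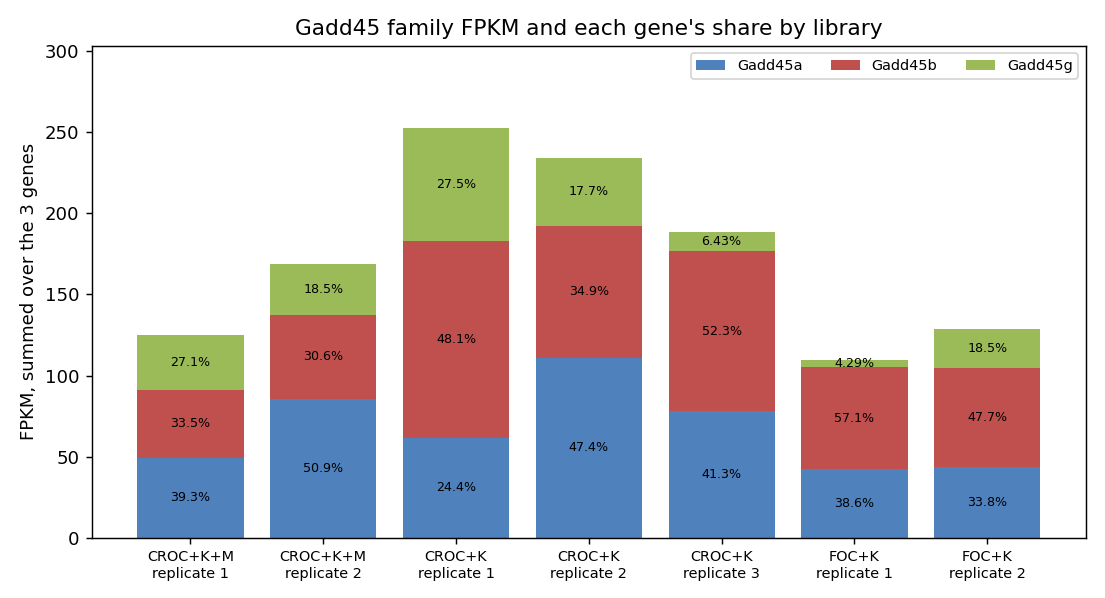
Stacked FPKM (vertical axis, from 0) of Gadd45a, Gadd45b and Gadd45g in each library, with each gene's share of the sum printed in its segment. The 3 CROC+K bars, at 188.6 to 252.5, are the tallest, and the Gadd45b share is smallest in the 2 CROC+K+M bars, at 33.5% and 30.6%.

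Sesn1 and Trp53inp1 act in the stress and metabolic arm. Sesn1 encodes sestrin 1, which restrains the growth kinase mTORC1 and aids antioxidant defence. It was at 3.14 and 5.13 FPKM in CROC+K+M, at 20.3, 1.27 and 3.61 in CROC+K, and at 5.12 and 10.9 in FOC+K. Within CROC+K the high value was that of replicate 1, which also has high Rn45s, and the other high values of Rn45s, those of FOC+K, go with Sesn1 values of 5.12 and 10.9. The log2 fold change of -0.50 ± 0.87 for CROC+K versus FOC+K was -1.40 without CROC+K replicate 1 and 0.21 without CROC+K replicate 2. With a term added for high and low Rn45s, which leaves only CROC+K replicate 1 to set against FOC+K, it was 1.31, and the part of that split in the value was not tested. Trp53inp1, which encodes a nuclear and autophagy-linked cofactor of p53, was the steadiest member, at 47.7 and 48.0 FPKM in CROC+K+M, 43.7, 57.3 and 57.9 in CROC+K, and 44.7 and 46.7 in FOC+K. Its log2 fold changes were between -0.13 and 0.20, with 95% intervals inside -0.73 to 0.79.

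**Figure D3:**
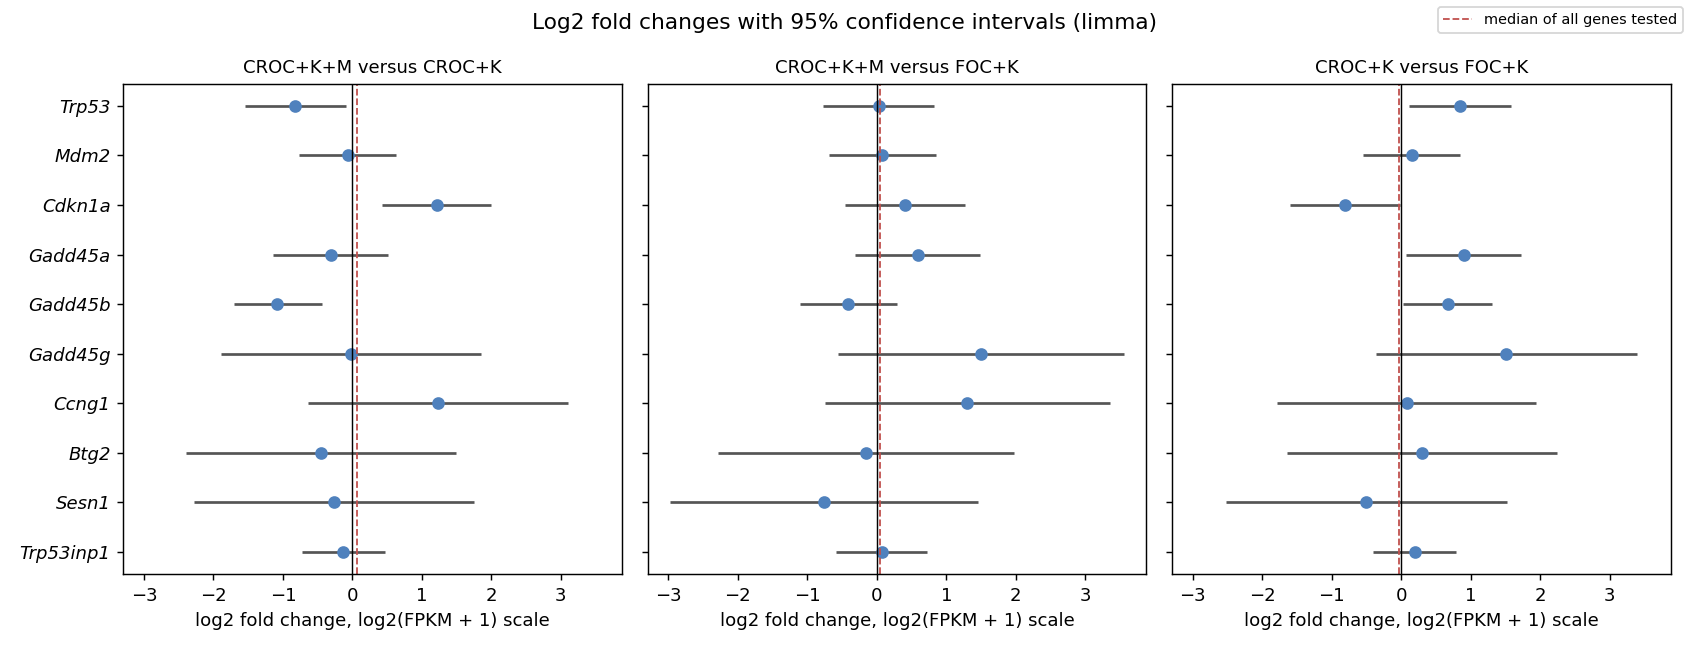
Log2 fold changes (horizontal axes, log2(FPKM + 1) scale) of the 10 genes in the 3 comparisons, with 95% confidence intervals from limma (bars) and the median of all genes tested (dashed line, between -0.03 and 0.06). The intervals of Trp53, Cdkn1a and Gadd45b exclude 0, before adjustment, in both comparisons with CROC+K, with opposite signs, and that of Gadd45a excludes 0 for CROC+K versus FOC+K.

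Over the 10 members, 8 had a positive log2 fold change for CROC+K versus FOC+K, with a median of 0.25 against -0.03 over all genes tested. Sesn1 is counted as negative (-0.50), although its mean FPKM was 8.38 in CROC+K against 8.03 in FOC+K. The groups did not overlap in 4 members (Trp53, Gadd45a and Gadd45b higher, Cdkn1a lower), beside 19.1% of all genes. For CROC+K+M versus CROC+K the median was -0.20 against 0.06, and 3 members did not overlap (Cdkn1a higher, Trp53 and Gadd45b lower), beside 23.4%. For CROC+K+M versus FOC+K the median was 0.07 against 0.04, and 5 did not overlap (Cdkn1a, Gadd45a, Gadd45g and Trp53inp1 higher, Gadd45b lower), beside 41%. The directions of Trp53, Cdkn1a and Gadd45b in both comparisons with CROC+K, and of Gadd45a for CROC+K versus FOC+K, were kept under each of the 16 alternatives run. The groups do not overlap in these cases, so only equal FPKM sums and quantile normalization could have reversed a direction.

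Scaling the libraries to equal FPKM sums moved the median of all genes to -0.30 for CROC+K versus FOC+K, to -0.14 for CROC+K+M versus CROC+K and to -0.44 for CROC+K+M versus FOC+K. Relative to that median, Trp53 lay 0.84 higher and Cdkn1a 0.83 lower for CROC+K versus FOC+K. Relative to the median for CROC+K+M versus CROC+K, Trp53 was at -0.91, Gadd45b at -1.18 and Cdkn1a at 1.10. Under the same scaling, without that reference, Trp53 was at 0.54 and Gadd45b at 0.33 for CROC+K versus FOC+K. Cdkn1a was at -0.18 for CROC+K+M versus FOC+K, so its direction there depends on the scaling.

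The rest of the p53 pathway was described from a list of 71 other genes, 61 of which were tested: 22 regulators of p53, the 2 family members Trp63 and Trp73, and 37 further targets. No gene of this list passed in any comparison (limma adjusted p), as for all genes. For CROC+K versus FOC+K the list had 29 genes with a positive and 32 with a negative log2 fold change, at a median of -0.01. In this comparison 1 gene had an unadjusted limma p under 0.05, beside 2.19% of all genes. That gene is Pmaip1, which encodes the BH3-only death protein Noxa, at 6.66, 3.67 and 4.19 FPKM in CROC+K against 0.485 and 1.90 in FOC+K (1.46 ± 0.47, adjusted p = 0.9996). The 22 regulators had a median of -0.05, the 7 DNA repair targets one of 0.35, with 5 higher, and the 12 metabolism and stress targets one of -0.25, with 8 lower.

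With melatonin, CROC+K+M versus CROC+K, 28 genes of the list had a positive and 33 a negative log2 fold change, with a median of -0.06. An unadjusted limma p under 0.05 was found for 4 genes of the list, beside 10.4% of all genes. Chek1, a checkpoint kinase gene of the DNA damage response, was at 87.6 and 74.3 FPKM in CROC+K+M against 122.8, 150.2 and 144.4 in CROC+K (-0.77 ± 0.24, adjusted p = 0.409). Plk2, a polo-like kinase gene and p53 target, was at 6.84 and 2.94 against 10.1, 9.83 and 9.55 (-0.96 ± 0.37, adjusted p = 0.445); in FOC+K it was at 5.40 and 5.45, so like Trp53 and Gadd45b it was highest in the 3 CROC+K libraries. Another is Steap3, with a mean of 1.61 FPKM against 0.216 and a log2 fold change of 1.14 ± 0.39. In CROC+K+M versus FOC+K, 34 genes had a positive and 27 a negative log2 fold change, with a median of 0.04. Here 1 gene had an unadjusted limma p under 0.05, beside 6.46% of all genes. It is Hipk2, which encodes a kinase of p53, at 4.39 and 3.81 FPKM in CROC+K+M against 9.87 and 7.84 in FOC+K (-0.95 ± 0.33, adjusted p = 0.755).

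As with Ccng1, some targets were high in CROC+K+M replicate 1 alone, the library with trophectoderm markers. The 3 given here were picked from the list after their values were seen. Without CROC+K+M replicate 2, which leaves replicate 1 alone, their log2 fold changes against CROC+K were 2.96 (Sfn), 2.56 (Bax) and 4.36 (Perp). Sfn, the gene of 14-3-3 sigma, was at 87.2 and 5.23 FPKM in the CROC+K+M libraries, Bax, a pro-apoptotic Bcl2 family gene, at 103.4 and 11.8, and Perp, a desmosomal and apoptosis gene, at 38.5 and 0.446. Sfn and Perp are also expressed in epithelia. Outside that library Sfn was at 5.23 to 14.95 FPKM and Bax at 11.8 to 23.8, and the part of the trophectoderm markers in these values was not tested. With both melatonin libraries used, Sfn, Bax and Perp had limma adjusted p-values of 0.712, 0.659 and 0.606 against CROC+K.

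**Figure D4:**
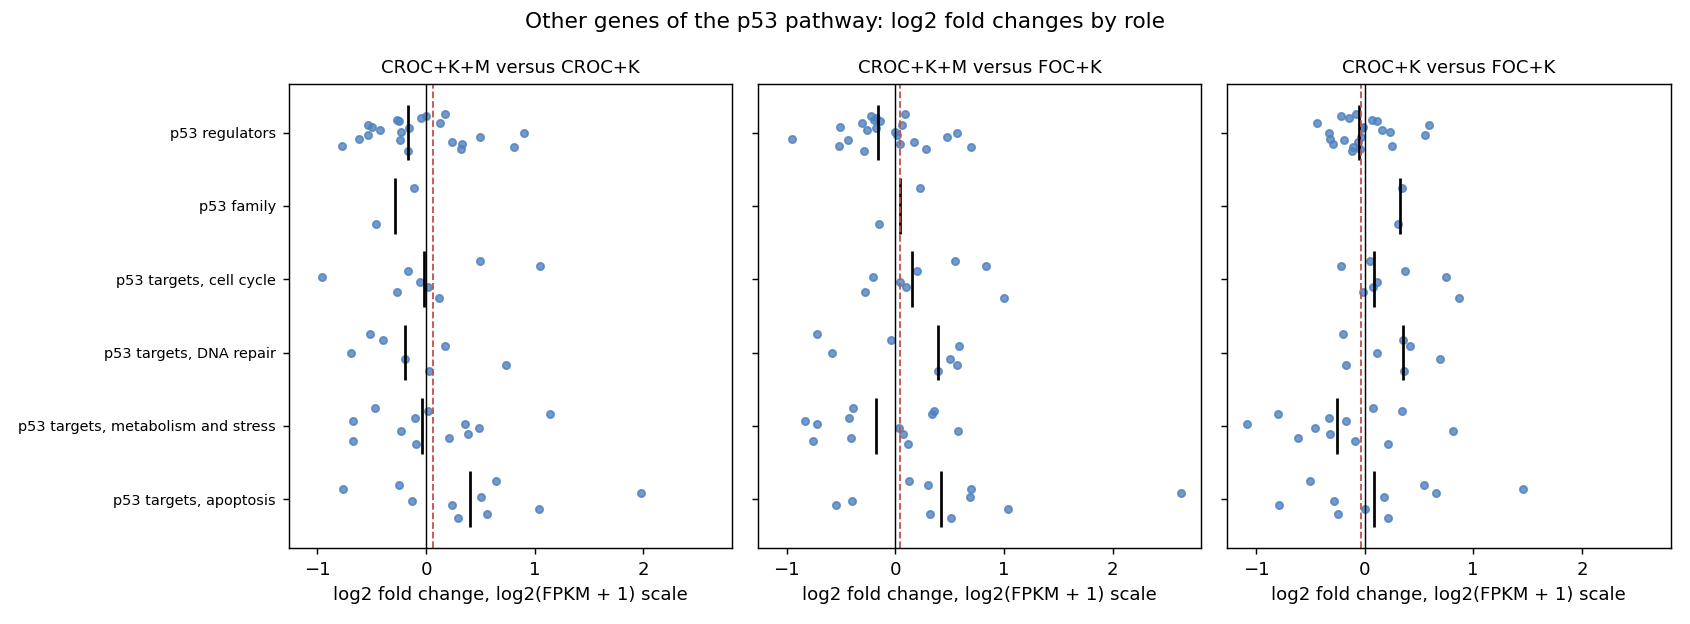
Log2 fold changes (horizontal axes, log2(FPKM + 1) scale) of the 61 other p53 pathway genes in the 3 comparisons, grouped by role. Points are genes, short black lines the median of each role, and the dashed line the median of all genes tested. Except for the 2 genes of the p53 family, the points of each role lie on both sides of 0 in every panel, and the medians of the 22 regulators are -0.17, -0.16 and -0.05 from left to right.

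The genes whose log2(FPKM + 1) followed a member most closely over the 7 libraries were looked up among 6553 candidates. For Trp53 these were Npm2, an oocyte nucleoplasmin gene, and Arhgap20os (Pearson r = 0.980 each) and Enox1 (r = 0.977). Npm2 was at 281.8 and 252.1 FPKM in CROC+K+M, 310.7, 374.2 and 394.0 in CROC+K, and 255.4 and 253.1 in FOC+K, so it too was highest in the 3 CROC+K libraries. Nearest to Cdkn1a were Ccdc25 (r = 0.993), Ap1m2 (r = 0.986) and Fam195b (r = 0.984), and nearest to Gadd45b were Cep85, Lsp1 (r = 0.969 each) and Hist1h3f (r = 0.968). With 7 libraries that share their groups, depth and embryo pools, and so many candidates, correlations this high describe the order of libraries only.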

How the data were processed

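RNA of 7 libraries was sequenced from pooled embryos with an RNA integrity number above 7.0, using a SMARTer Ultra Low Input cDNA kit with ScriptSeq v2, per the labels' protocols. The authors deposited 1 FPKM value per gene and library. STAR 2.5.2b, Cufflinks 2.2.1, Cuffnorm, R 3.3.2 and mouse build mm9 are named, per the submitters' processing notes; the annotation, and any scaling between libraries, are not stated there. Cufflinks divides shared fragments by a model, so genes with copies are uncertain.

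Groups come from sample titles. The 1268 rows of small RNA genes and Rn45s were left out, and log2(FPKM + 1) of the remaining genes with an FPKM of at least 1 in 2 or more libraries was tested with limma 3.58.1 (intensity trend, all 7 libraries in 1 fit, no covariate beside the group, leaving 4 residual degrees of freedom, R 4.3.3). Fold changes are on this scale, which understates those of low genes. P-values are two-sided and adjusted by the Benjamini-Hochberg method over all genes tested, with a threshold of 0.05. The fit was tested on simulated data. Fragment counts were not used here, so no counting interval is given.

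The members, the pathway list, the markers and the rules for named genes were chosen with earlier results of these data known. All 10 members are named, with pathway genes at an unadjusted p under 0.05 and a mean FPKM of at least 1 (at most 5 per direction) and the 3 genes nearest to Trp53, Cdkn1a and Gadd45b by correlation (mean FPKM of at least 5); Steap3, Sfn, Bax and Perp fall outside this rule, and 1 gene that it takes is not reported here. Replicate numbers were not taken as pairs, since same-numbered libraries did not deviate together.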

Additional observations from a re-analysis of the deposited data

How the results depend on the processing

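For CROC+K versus FOC+K the 16 alternatives left the calls at 0 members, 0 of the pathway list and 0 genes in all. Leaving out single libraries gave, both for CROC+K+M versus CROC+K and for CROC+K+M versus FOC+K, 0 to 1 members and 0 to 3 genes of the pathway list, and 0 to 658 and 0 to 546 genes in all; every call came without CROC+K+M replicate 2, which leaves replicate 1 alone. With the replicate block, 0 members and 0 genes passed in each comparison; the titles' numbers are not said to pair libraries, and correlations of same-numbered libraries' deviations were -0.457 to 0.029. Of 477 recomputed member values, 430 kept their direction and call, 2 (Ccng1) newly passed and 45 changed sign, none of them past the threshold. Many of the 477 could not change direction. Changing the filter, or leaving out a library outside the comparison, leaves the log2 fold change as it was. The cause of the sign changes was not tested. For CROC+K versus FOC+K, equal FPKM sums gave Mdm2 -0.19, Ccng1 -0.21 and Trp53inp1 -0.14, and the Rn45s split as a term gave Mdm2 -0.11, Trp53inp1 -0.06 and Sesn1 1.31. For CROC+K+M versus CROC+K the split gave Gadd45g 0.51 and Sesn1 0.64, and array weights gave them 0.18 and 0.28. For CROC+K+M versus FOC+K, equal sums gave Trp53 -0.52, Mdm2 -0.51, Cdkn1a -0.18 and Trp53inp1 -0.52, and quantile normalization gave Trp53 -0.10, Mdm2 -0.18 and Trp53inp1 -0.19. In that comparison the split gave Trp53 -0.38, Mdm2 -0.30, Gadd45b 0.03, Btg2 0.26, Sesn1 1.95 and Trp53inp1 -0.33. Values of the split against FOC+K rest on CROC+K replicate 1, the only CROC+K library with high Rn45s.

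Without single libraries the sign also changed, for CROC+K versus FOC+K, in Mdm2 (-0.05 to 0.27), Ccng1 (-0.15 to 0.44) and Sesn1 (-1.40 to 0.21). For CROC+K+M versus CROC+K it changed in Mdm2 (-0.26 to 0.13), Gadd45a (-0.71 to 0.08), Gadd45g (-0.71 to 0.51), Ccng1 (-0.23 to 2.69), Btg2 (-2.05 to 1.15) and Sesn1 (-0.98 to 0.64), and for CROC+K+M versus FOC+K in Trp53 (-0.19 to 0.24), Mdm2 (-0.12 to 0.27), Ccng1 (-0.16 to 2.76) and Btg2 (-1.75 to 1.45). Groups of 2 or 3 pools limit what can be called.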
